A study of Homo sapiens with 12 samples.

Results

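The miR-106a-363 cluster is a group of microRNA hairpins on the human X chromosome. It was followed here through 4 mature miRNAs, hsa-miR-106a-5p, hsa-miR-18b-5p, hsa-miR-20b-5p and hsa-miR-363-3p (named below without the species prefix), taken by name from a table of 2588 mature human miRNAs. They were chosen by earlier results of these data, and the rule names them without naming a contrast. Differences of the knockdown and knockout cells from the control cells are treated here as the values that the members were selected on. This is an assumption, since the rule covers all 6 groups and EV values may have been seen too. Values inside cells, and comparisons of EVs with cells, are therefore given as a description with no test of a member, and the tests in EVs rest on that reading.

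The libraries hold small RNA of MDA-MB-231, a human line of triple-negative breast cancer, and of the extracellular vesicles (EVs) pelleted from its conditioned medium. The Rab27a KD line carried a lentiviral short hairpin RNA against RAB27A, a small GTPase that works in vesicle secretion. The miR-122 KO line had been edited at the miR-122 gene by CRISPR-Cas9 with 2 guide RNAs, and the control line carried an empty vector. Each line gave EVs and the cells that released them, with 2 libraries per group and 12 in all. All lines were grown with 10% fetal bovine serum and then kept for 24 h without serum, with 1% bovine serum albumin, before the EVs were collected. Each condition was 1 line, so an effect of the knockdown or the knockout and a property of that line cannot be told apart. The labels number the replicates without naming separate cultures, and p-values therefore cover only the spread between the libraries at hand, which may be technical. In bulk libraries, fewer cells with a miRNA and less of it in each cell cannot be told apart.

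The miR-106a-363 cluster is one of 3 related human clusters, beside miR-17-92 on chromosome 13 and miR-106b-25 on chromosome 7. Its hairpins are cut from a shared primary transcript, and each mature miRNA guides Argonaute to messenger RNAs that pair with its seed, bases 2 to 8. The seeds of miR-106a-5p and miR-20b-5p are those of miR-17-5p, known for repressing cell-cycle inhibitors such as CDKN1A. The seed of miR-363-3p is that of miR-92a-3p and miR-25-3p. In many adult tissues the chromosome 13 and chromosome 7 clusters are the better expressed ones.

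The mature sequences show how close each member lies to its counterpart on chromosome 13, which bears on how well the reads can be told apart. Each member is followed by that counterpart, 5′ to 3′, with the seed in capitals. The sequences are those of RefSeq (GRCh38.p14), and all 4 members lie on the minus strand of the X chromosome.
miR-106a-5p: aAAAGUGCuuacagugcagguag
miR-17-5p: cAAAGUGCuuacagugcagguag
miR-18b-5p: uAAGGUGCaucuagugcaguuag
miR-18a-5p: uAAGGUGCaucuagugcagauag
miR-20b-5p: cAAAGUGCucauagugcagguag
miR-20a-5p: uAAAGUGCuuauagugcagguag
miR-363-3p: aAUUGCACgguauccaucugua
miR-92a-3p: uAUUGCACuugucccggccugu

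Counted from the 5′ end, with the member's base first, miR-106a-5p differs from miR-17-5p by 1 base, A1C. miR-18b-5p differs from miR-18a-5p by 1 base, U20A, and miR-20b-5p differs from miR-20a-5p by 2, C1U and C10U. miR-363-3p differs from miR-92a-3p at 12 of its 22 positions, an identity of 45.5%. None of these differences lies in a seed. How the deposited counting assigned reads that match several miRNAs is not given in the sources used here. The levels of miR-106a-5p, miR-18b-5p and miR-20b-5p are therefore uncertain by whatever share of reads passed between such near-identical copies.

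In order along the transcript the mature members lie at chrX:134170244-134170266 for miR-106a-5p, chrX:134170084-134170106 for miR-18b-5p, chrX:134169850-134169872 for miR-20b-5p and chrX:134169382-134169403 for miR-363-3p. Their hairpins span 901 nt together with MIR19B2 and MIR92A2, whose 3p arms miR-19b-3p and miR-92a-3p also come from chromosome 13. The annotation (GENCODE v29, GRCh38) places all 6 hairpins inside the processed transcript AC002407.1. The deposited processing used hg19, and the count table holds no coordinates.

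**Figure D1:**
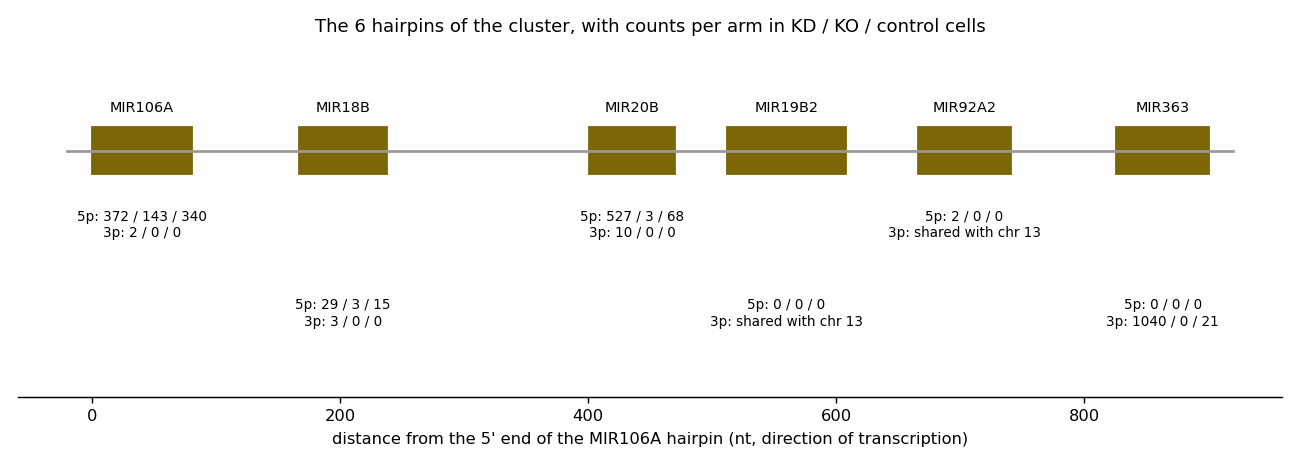
The 6 hairpins of the cluster drawn to scale in the direction of transcription, with the distance in nt from the 5′ end of the MIR106A hairpin on the horizontal axis. Under each hairpin stand the counts of its arms summed over the 2 libraries of knockdown, knockout and control cells; miR-363-3p has 1040, 0 and 21 counts, and the 3p arms of MIR19B2 and MIR92A2 are shared with chromosome 13.

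Levels are counts scaled to each library's total, while fold changes come from edgeR's quasi-likelihood fit with TMM factors, which scale libraries by a trimmed mean of log ratios. A miRNA rose, fell or passed where its Benjamini-Hochberg adjusted p over all tested miRNAs was below 0.05. With 2 libraries per group, groups can also lie apart without a difference, and the share of all miRNAs that did so is not given. Depth set what could be seen. Library totals were 164656 and 170366 counts in knockdown EVs and between 2387336 and 11840597 in all other groups, so that 1 count was worth 6.07 and 5.87 CPM (counts per 1000000 counts of the library) in the knockdown EVs. miR-122-5p, the target of the knockout, had 0 and 0 counts in knockout cells against 5 and 4 in control cells, and 4 and 3 counts in knockout EVs against 790 and 651 in control EVs. In the knockdown line it had 39 and 40 counts in cells, 12.3 and 12.7 CPM against 0.422 and 0.361 CPM in control cells, and 7 and 5 counts in EVs. RAB27A is a messenger RNA and was not measured. The 4 miRNAs listed as high in mesenchymal-like breast lines, among them miR-21-5p, made up 453934 to 685523 CPM in every library. The 5 epithelial markers of the miR-200 family made up 129 to 425 CPM. Libraries of the control EVs stood apart. 13 miRNAs of red cells, leukocytes and stroma summed to 279 to 364 CPM in knockdown EVs, 172 to 253 CPM in knockout EVs and 13058 to 14577 CPM in control EVs. In the cells these sums were 118 to 122.3 CPM in the knockdown, 174 to 176 CPM in the knockout and 283 to 296 CPM in the control. Most of each cell sum was miR-486-5p, which averaged 97.0, 163 and 265 CPM in these groups.

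Inside the cells, all 4 members stood higher in the knockdown line than in the control line, and miR-363-3p stood out most. miR-363-3p had 528 and 512 counts in knockdown cells, against 14 and 7 counts in control cells. That was 165 CPM ± 2.89 in knockdown cells and 0.907 CPM ± 0.389 in control cells (SD, n = 2 each), a log2 fold change of 7.48 (SE 0.25). miR-20b-5p had 250 and 277 counts in knockdown cells, against 33 and 35 in control cells, or 83.7 CPM ± 6.42 and 2.97 CPM ± 0.266, with a log2 fold change of 4.82 (SE 0.22). No library of one line overlapped with the other for either miRNA, which alone says little with n = 2.

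The other members of the cluster differed less. miR-18b-5p had 17 and 12 counts in knockdown cells, against 9 and 6 in control cells, a log2 fold change of 2.80 (SE 0.55). miR-106a-5p had 168 and 204 counts in knockdown cells, against 176 and 164 in control cells; with the smaller knockdown libraries this was 59.1 CPM ± 8.33 and 14.8 CPM ± 0.0316, a log2 fold change of 2.004 (SE 0.18). Among these 4 the difference was smallest for MIR106A, the first hairpin of the transcript, and largest for MIR363, the last. Likeness to the paralogue runs beside this order. miR-106a-5p and miR-18b-5p differ from theirs by 1 base, miR-20b-5p by 2 and miR-363-3p by 12. Whether reads passed between near-identical copies bear on the order was not tested. MIR19B2 and MIR92A2, which lie between MIR20B and MIR363, cannot be placed, since their 3p arms are shared with chromosome 13. Of all 613 miRNAs tested in cells, 53.8% were called, 24.3% higher and 29.5% lower in the knockdown. Since this contrast is treated as one that chose the members, nothing is read from that share.

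In knockout cells 3 of the members, miR-363-3p, miR-20b-5p and miR-18b-5p, had 3 counts or fewer over both libraries, while miR-106a-5p stayed well above the limit of detection. miR-363-3p had 0 and 0 counts in knockout cells, for which the limit over the group (3 counts) is 0.15 CPM. Its level in control cells was 6.11-fold that limit, without an interval for the control counts. miR-20b-5p had 2 and 1 counts in knockout cells, a share 19.8-fold lower than that of control cells (95% counting interval 6.49 to 98.4). miR-18b-5p had 3 and 0 counts in knockout cells and was 4.37-fold lower (1.24 to 23.5). miR-106a-5p had 64 and 79 counts in knockout cells, 7.16 CPM ± 1.23 (SD, n = 2), and its log2 fold change against control cells was -0.72 (SE 0.20). How many of these counts are reads of miR-17-5p, which differs from it by 1 base, is not known. Among all miRNAs tested 62.3% were called, 34.6% lower and 27.7% higher in knockout cells, of which again nothing is read. Of those calls 44.5% were higher with TMM scaling and 32.4% with total counts, which shifted the median of all miRNAs by -0.34.

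**Figure D2:**
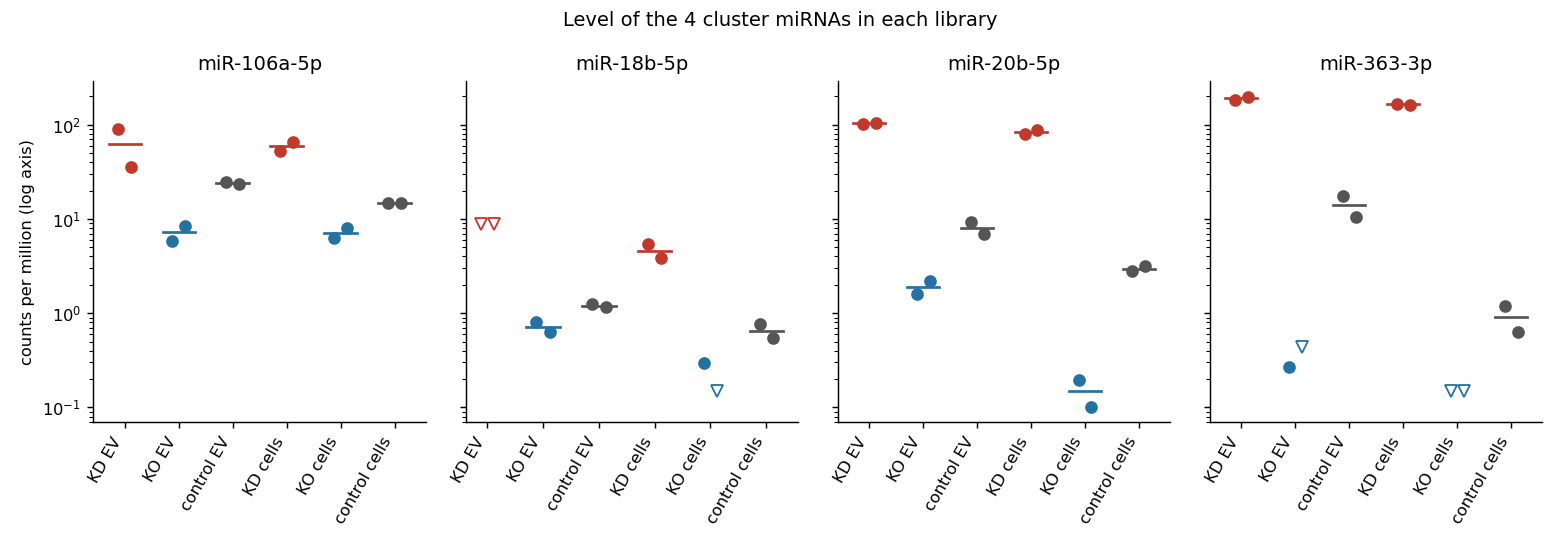
Level of each member in every library, in CPM on a log axis, with knockdown (KD), knockout (KO) and control groups for EVs on the left and cells on the right. Points are single libraries, bars are means of 2, and open triangles mark the level that 3 counts over the group would give where a library has 0 counts. miR-363-3p and miR-20b-5p sit between 79.1 and 200 CPM in all 4 knockdown libraries and at or below 17.6 CPM in all others.

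Arms that only this locus makes were counted beside the members. There are 6 of them in the table, each the less used strand of its hairpin, and none had enough counts to be tested. Together they had 17 counts in knockdown cells, 0 in knockout cells and 0 in control cells, so that they were at least 20.6-fold higher in knockdown cells than in control cells. miR-20b-3p gave 5 and 5 of these counts, and its sequence shares no seed with any member.
miR-20b-3p: aCUGUAGUaugggcacuuccag

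miR-18b-3p gave 1 and 2 counts in the knockdown cells, miR-106a-3p 2 and 0, and miR-92a-2-5p 2 and 0. In EVs these arms had 1 count in the knockdown, 0 in the knockout and 1 in the control, too few for a comparison. The arms that the locus shares with chromosome 13 showed no such difference between knockdown and control cells. The log2 fold change was 0.02 (SE 0.13) for miR-19b-3p and 0.04 (SE 0.11) for miR-92a-3p, and neither passed the test. In knockdown cells miR-19b-3p had 1659 CPM ± 88.3 and miR-92a-3p 4180 CPM ± 295, beside 165 CPM of miR-363-3p. A rise of MIR19B2 or MIR92A2 of that size could be hidden in such levels, so the test cannot show whether these hairpins differed.

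The chromosome 13 paralogues gave a yardstick within each library that does not depend on scaling, but that moves with the paralogue. miR-92a-3p, which MIR92A2 of this cluster also makes, had 1483 CPM ± 270 in knockout cells and 4097 CPM ± 231 in control cells. For every 1000 counts of miR-92a-3p there were 42.1 and 37.1 of miR-363-3p in knockdown cells, against 0.301 and 0.148 in control cells. For every 1000 counts of miR-20a-5p there were 18.7 and 19.6 of miR-20b-5p in knockdown cells, 0.699 and 0.293 in knockout cells, and 0.727 and 0.789 in control cells. Relative to its paralogue, miR-20b-5p thus stood far higher in knockdown cells, while the first knockout library lay close to both control libraries and the second below them.

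The same ratio for miR-106a-5p per 1000 counts of miR-17-5p was 24.1 and 27.3 in knockdown cells, 8.01 and 8.93 in knockout cells, and 7.51 and 7.41 in control cells. Its lower level in the knockout cells therefore ran beside a lower level of its paralogue: the log2 fold change of miR-17-5p in knockout cells was -0.90 (SE 0.11, adjusted p = 5.24e-07), and that of miR-20a-5p was -3.31 (SE 0.12, adjusted p = 5.36e-15). For miR-18b-5p per 1000 counts of miR-18a-5p the values were 10.8 and 7.44 in knockdown cells, 3.48 and 0 in knockout cells, and 1.91 and 1.29 in control cells.

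**Figure D3:**
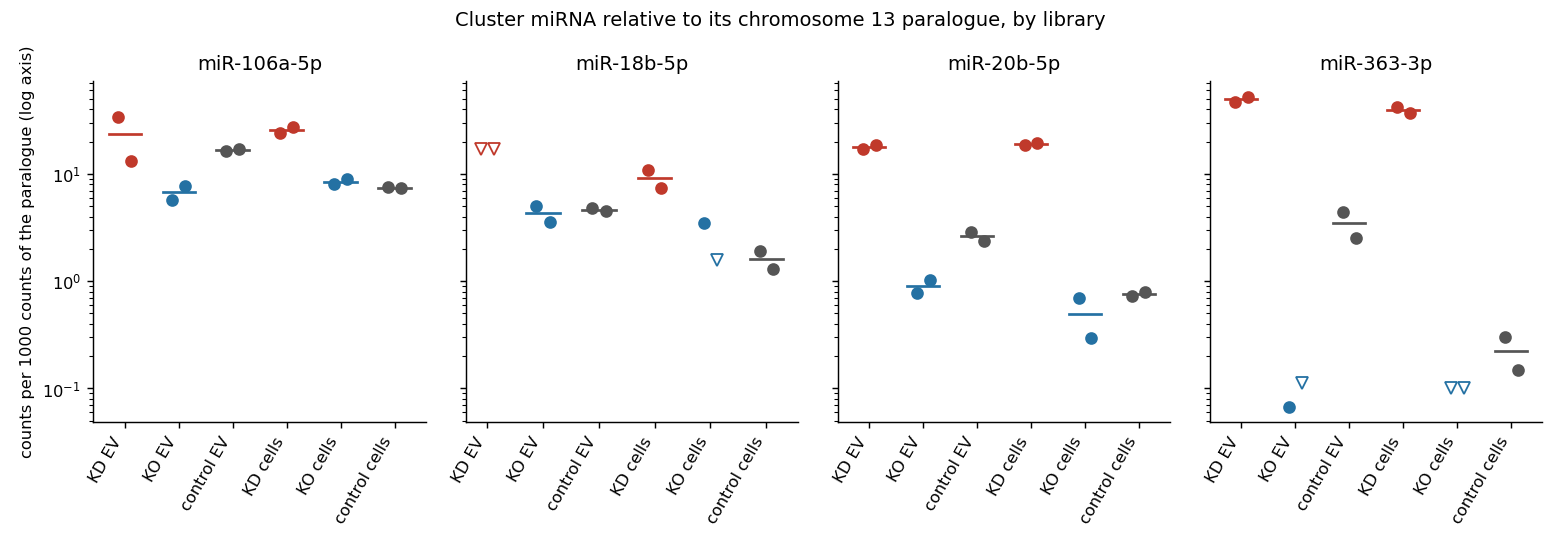
Counts of each member per 1000 counts of its chromosome 13 paralogue in every library, on a log axis, with the groups in the same order for EVs and cells. The paralogue of miR-363-3p, miR-92a-3p, is also made by MIR92A2 of this cluster. Points are libraries, bars are means of 2, and open triangles mark 3 counts over the group where a library has 0 counts of the member. The knockdown libraries hold 17.2 to 19.6 counts of miR-20b-5p per 1000 of miR-20a-5p in EVs and cells alike, and every other library holds at most 2.87.

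The related clusters lay closer to the control or below it in knockdown cells. Of 10 miR-17-92 arms specific to chromosome 13, 9 were tested in cells; in the knockdown 1 rose and 2 fell, with a median log2 fold change of 0.17 beside -0.11 over all tested miRNAs. That count was 5 higher and 2 lower with RLE size factors, a scaling by median ratios, which shifted the median of all miRNAs by 0.12, and 0 higher and 2 lower with total counts. All 6 miR-106b-25 arms fell in knockdown cells (median -0.73), 5 of them with RLE size factors, and miR-93-5p, an abundant carrier of the miR-17 seed, fell by 0.66 on the log2 scale (SE 0.11, adjusted p = 2.72e-05). In knockout cells 5 of the 9 miR-17-92 arms fell and 1 rose (median -0.39, beside -0.08 over all), and 3 of the 6 miR-106b-25 arms rose, though none rose and 2 fell with total counts.

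Other miRNA genes of Xq26, 370 kb from the cluster on the X chromosome, were followed through 9 arms of the group around miR-424 and miR-503, relatives of miR-16. In knockdown cells 8 of them were tested and 8 fell, with a median log2 fold change of -1.03. Over all tested miRNAs 29.5% fell and the median was -0.11. With RLE size factors or total counts 7 of the 8 fell. miR-424-5p fell by 0.83 (SE 0.12, adjusted p = 7.01e-06). In knockout cells 5 of the 8 fell (median -0.90), beside 34.6% of all tested miRNAs (median -0.08). The members and these neighbours thus lay on opposite sides of the control in the knockdown cells, though the members were selected on those cell values.

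The members' share of all reads with their seed shows how much of each family they supplied. The seed AAAGUGC is carried by 8 miRNAs of the table, and miR-106a-5p and miR-20b-5p together made up 1.29% and 1.40% of that family's counts in knockdown cells, 0.12% and 0.135% in knockout cells, and 0.15% and 0.147% in control cells. The family as a whole had 10585 CPM ± 507 in knockdown cells, 5716 CPM ± 439 in knockout cells and 12014 CPM ± 338 in control cells (SD, n = 2 each). The seed AUUGCAC is carried by 6 miRNAs, and miR-363-3p made up 3.06% and 2.67% of their counts in knockdown cells, none in knockout cells, and 0.0192% and 0.00961% in control cells. Most counts with the first seed thus carried the names of other loci. With the second seed miR-92a-3p, which MIR92A2 of this cluster and a chromosome 13 hairpin both make, is among the other names, so how much of that family the cluster supplied is not known.

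In EVs the members were compared between lines with a test. It stands as a test only if EV values played no part in choosing them, which is not recorded. The EVs also came from the same lines as the cells on whose values the members were selected. These tests are therefore not independent of that selection. miR-363-3p had 30 and 34 counts in knockdown EVs, against 42 and 27 counts in control EVs. That was 191 CPM ± 12.3 in knockdown EVs and 14.0 CPM ± 5.09 in control EVs (SD, n = 2 each), and miR-363-3p rose by 3.66 on the log2 scale (SE 0.34, adjusted p = 2.07e-06). The knockdown libraries, at 182 and 200 CPM, lay well above both control libraries, at 17.6 and 10.4 CPM.

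miR-20b-5p had 17 and 18 counts in knockdown EVs, against 22 and 18 in control EVs. It had 104 CPM ± 1.70 in knockdown EVs and 8.07 CPM ± 1.61 in control EVs, and rose by 3.57 (SE 0.38, adjusted p = 5.85e-06). Both miRNAs kept their call and direction when any single EV library was left out, with log2 fold changes of 3.21 to 3.93 for miR-363-3p and 3.27 to 3.64 for miR-20b-5p.

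miR-106a-5p had 15 and 6 counts in knockdown EVs, 91.1 and 35.2 CPM, against 59 and 61 counts in control EVs, 24.7 and 23.5 CPM. In CPM the groups did not overlap, but the knockdown libraries lay far apart, and the log2 fold change of 1.26 (SE 0.44) passed narrowly (adjusted p = 0.0311). The call rested on single libraries. Without the first knockdown EV library the log2 fold change was 0.34 (adjusted p = 0.677), and without the first or the second control EV library it was 1.15 (adjusted p = 0.0972) or 1.12 (adjusted p = 0.136). miR-18b-5p had 0 counts in both knockdown EV libraries, which allows up to 8.95 CPM over the group, against 3 and 3 counts or 1.21 CPM ± 0.0715 in control EVs. At that depth a fall could not be seen, nor a rise that stayed below 8.95 CPM.

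Of the 488 miRNAs tested in EVs 46.3% were called, 18.9% higher and 27.5% lower in the knockdown. miR-18b-5p did not pass the filter on low counts, so 3 of the 4 members were tested. Of the 9 tested miR-17-92 arms of chromosome 13, 4 rose and 1 fell, with a median of 0.77 beside -0.29 over all tested. miR-17-5p rose by 0.77 (SE 0.12, adjusted p = 1.66e-04) and miR-20a-5p by 0.81 (SE 0.11, adjusted p = 6.92e-05). Of the 6 miR-106b-25 arms 5 fell, and of the 7 Xq26 arms tested 2 fell. Per 1000 counts of the paralogue, miR-20b-5p had 17.2 and 18.8 in knockdown EVs against 2.87 and 2.39 in control EVs, and miR-363-3p had 46.8 and 52.6 against 4.41 and 2.54. By the same measure miR-106a-5p had 33.7 and 13.3 in knockdown EVs against 16.2 and 17.0 in control EVs. Relative to miR-17-5p its groups thus overlapped.

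The blood and stroma markers moved in these EVs too. All 13 fell in the knockdown EVs, where 7 of them, miR-144-5p, miR-150-5p, both arms of miR-223, miR-145-5p, miR-199a-3p and miR-214-3p, had no count. Their sum was 279 to 364 CPM in knockdown EVs and 13058 to 14577 CPM in control EVs, and their part in the result was not tested.

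In knockout EVs the members stood below the control. miR-363-3p had 1 and 0 counts in knockout EVs, against 42 and 27 in control EVs, a share 95.8-fold lower (95% counting interval 16.6 to 3839), and it fell (adjusted p = 1.99e-05). miR-20b-5p had 6 and 7 counts in knockout EVs, 1.60 and 2.21 CPM, against 9.22 and 6.93 CPM in control EVs, and fell by 1.69 on the log2 scale (SE 0.42, adjusted p = 0.0061). miR-106a-5p had 22 and 27 counts in knockout EVs, 5.86 and 8.53 CPM, against 24.7 and 23.5 CPM in control EVs, and fell by 1.38 (SE 0.30, adjusted p = 0.0023). The groups overlapped for none of these 3 miRNAs, which alone says little with 2 libraries per group.

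miR-18b-5p, with 3 and 2 counts in knockout EVs against 3 and 3 in control EVs, was again too low to be tested. It had 0.715 CPM ± 0.118 in knockout EVs and 1.21 CPM ± 0.0715 in control EVs. Among all 488 miRNAs tested, 41.2% were called, 22.3% lower and 18.9% higher in knockout EVs. Of the calls 45.8% were higher with TMM scaling, 36.8% with RLE size factors and 19.2% with total counts, which shifted the median of all miRNAs by -0.37. None of the 9 tested miR-17-92 arms passed in knockout EVs (median -0.07, beside 0.03 over all tested), though 2 fell with RLE size factors and 4 with total counts. Per 1000 counts of miR-20a-5p, miR-20b-5p had 0.768 and 1.04 in knockout EVs against 2.87 and 2.39 in control EVs. Per 1000 counts of miR-17-5p, miR-106a-5p had 5.66 and 7.79 in knockout EVs against 16.2 and 17.0 in control EVs. All 13 blood and stroma markers fell here as well, with 172 to 253 CPM in knockout EVs and 13058 to 14577 CPM in control EVs, and their part in the result was not tested. The knockdown and the knockout were set against the same control libraries.

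**Figure D4:**
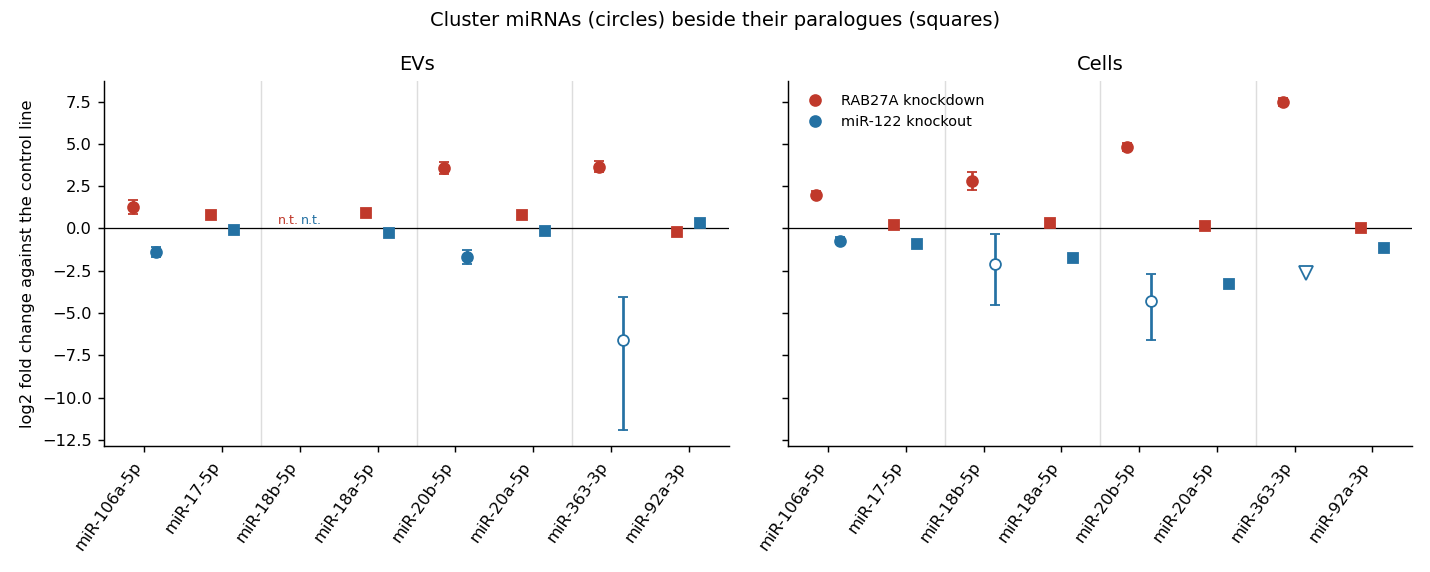
Log2 fold change of the knockdown and the knockout line against the control line, in EVs on the left and cells on the right, for each member (circles) and its chromosome 13 paralogue (squares). Filled symbols are edgeR values with TMM factors and SE bars. Open circles are ratios of summed counts over summed library totals, without TMM factors, where the line has 3 counts or fewer. Their bars are 95% counting intervals. The open triangle is the bound for 0 counts from the same totals, and n.t. marks miR-18b-5p, which was not tested in EVs. In cells the knockdown values run from 2.004 for miR-106a-5p to 7.48 for miR-363-3p.

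The EVs were next set beside the cells that released them. The cell libraries in these comparisons are those on whose values the members were selected, so that the values below describe the members and no p is given for them. In the control line miR-363-3p had 17.6 and 10.4 CPM in EVs, against 1.18 and 0.633 CPM in cells, a log2 fold change of 3.75 (SE 0.35). miR-20b-5p had 9.22 and 6.93 CPM in control EVs, against 2.79 and 3.16 CPM in control cells, a log2 fold change of 1.29 (SE 0.33). Neither pair of groups overlapped, which alone says little with 2 libraries per group. miR-363-3p was thus above miR-20b-5p in control EVs and below it in control cells.

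miR-106a-5p had 24.7 and 23.5 CPM in control EVs, against 14.9 and 14.8 CPM in control cells, a log2 fold change of 0.56 (SE 0.23), and miR-18b-5p had one of 0.72 (SE 0.82). Of the 574 miRNAs tested 53.7% were called, 30.8% higher and 22.8% lower in control EVs. Of the 9 miR-17-92 arms tested, none was higher and 7 were lower in control EVs (median -0.60, beside 0.02 over all tested), and 5 were lower with total counts. miR-20a-5p fell by 0.50 (SE 0.11, adjusted p = 1.74e-04). The 13 blood and stroma markers were all higher in the control EVs, and their part in the result was not tested.

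In the knockdown line the values of EVs and cells lay close together. miR-363-3p had 191 CPM ± 12.3 in EVs and 165 CPM ± 2.89 in cells (SD, n = 2 each), and its log2 fold change was -0.27 (SE 0.24). The log2 fold change of miR-20b-5p was -0.15 (SE 0.29) and that of miR-106a-5p was -0.39 (SE 0.36). Scaled by total counts, these 3 values were 0.21, 0.32 and 0.09, so no direction is given. In this line 19.3% of all miRNAs were called, 12% lower and 7.32% higher in EVs. Of those calls 37.8% were higher, against 75.6% with total counts, which shifted the median of all miRNAs by 0.29. Of the 13 blood and stroma markers 1 was higher in these EVs and none lower. miR-18b-5p had no count in the knockdown EVs and 4.60 CPM ± 1.10 in the knockdown cells, which is below the 8.95 CPM that the EV depth allows.

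In the knockout line miR-20b-5p had 6 and 7 counts in EVs, against 2 and 1 counts in cells, a share 12.5-fold higher in EVs (95% counting interval 3.44 to 68.5). miR-106a-5p had 7.19 CPM ± 1.89 in knockout EVs and 7.16 CPM ± 1.23 in knockout cells (SD, n = 2 each), and its log2 fold change was -0.21 (SE 0.29). The share of miR-18b-5p was 4.82-fold higher in EVs, with a counting interval of 0.937 to 31.0 that includes no difference. No fold is given for miR-363-3p, with 1 count in EVs and 0 in cells. In this line 59.1% of all miRNAs were called, 33.3% higher and 25.8% lower in EVs, and miR-20a-5p rose by 2.55 (SE 0.12, adjusted p = 1.75e-24). Of the blood and stroma markers 3 of 4 erythroid, 4 of 5 leukocyte and 2 of 4 stromal ones were higher in the knockout EVs and 1 erythroid one was lower, and their part in the result was not tested.

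**Figure D5:**
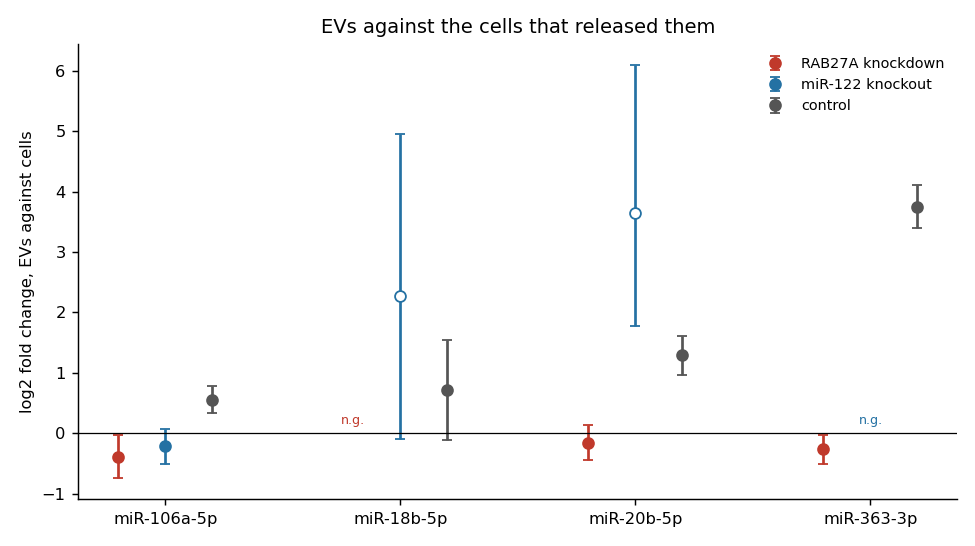
Log2 fold change of EVs against the cells that released them for each member in the knockdown, knockout and control lines. Filled circles are edgeR values with TMM factors and SE bars. Open circles are ratios of summed counts over summed library totals, without TMM factors, where a group has 3 counts or fewer. Their bars are 95% counting intervals, and n.g. marks a value not given because the counts do not allow it. In the control line miR-363-3p is highest, at 3.75, while the 3 knockdown values lie between -0.39 and -0.15.

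The interaction gives how far the EV to cell difference of a line departs from that of the control line. It contains the difference between lines inside cells, on which the members were selected: a large selected difference in cells moves it the other way, so its values are given without a test. For miR-363-3p the interaction of the knockdown was -4.01 (SE 0.43), for miR-20b-5p it was -1.44 (SE 0.43) and for miR-106a-5p -0.95 (SE 0.42), all on the log2 scale. The line contrasts behind them were 3.66 in EVs beside 7.48 in cells for miR-363-3p, and 3.57 beside 4.82 for miR-20b-5p. Among all miRNAs tested 18.6% were called, 14.3% with a lower and 4.36% with a higher EV to cell difference in the knockdown. Of those calls 23.4% were higher, against 52.6% with total counts, which shifted the median of all miRNAs by 0.33.

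When any single library was left out, the miR-363-3p value lay between -4.50 and -3.72. Of the 9 tested miR-17-92 arms 1 had a higher EV to cell difference in the knockdown and none a lower one. The blood and stroma markers had 13 negative values, of which 5 passed, and their part in the result was not tested.

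In the knockout line the interaction of miR-20b-5p was 1.98 (SE 0.81), resting on the 3 counts of the knockout cells, and that of its paralogue miR-20a-5p was 3.05 (SE 0.16, adjusted p = 5.29e-22). The interaction of miR-106a-5p was -0.77 (SE 0.37) and that of miR-18b-5p was 1.20 (SE 1.31). Here 48.3% of all miRNAs were called, 24.9% with a higher and 23.3% with a lower EV to cell difference in the knockout. Of the 13 blood and stroma markers 10 had a lower one, and their part in the result was not tested.

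Over all 6 groups, in CPM of the library total, miR-363-3p, miR-20b-5p and miR-106a-5p had much the same order. miR-363-3p averaged 191 CPM in knockdown EVs and 165 in knockdown cells, 14.0 in control EVs, 0.907 in control cells, 0.133 in knockout EVs and 0 in knockout cells. Its knockdown EVs and cells are not put in an order, since their fitted difference changed sign with the scaling, and 1 count separates the knockout EVs from the knockout cells. The other neighbouring groups did not overlap, which alone says little with 2 libraries per group. miR-20b-5p averaged 104 and 83.7 CPM in knockdown EVs and cells, again with no order between them, and then 8.07 in control EVs, 2.97 in control cells, 1.90 in knockout EVs and 0.149 in knockout cells, with no overlap between neighbours among these. miR-106a-5p was likewise highest in the knockdown, with overlap between its EVs and cells there and in the knockout. miR-18b-5p had 4.60 CPM in knockdown cells and no more than 1.21 CPM in any other group but the knockdown EVs, whose depth allows 8.95 CPM. Its knockout EVs, at 0.715 CPM, and its control cells, at 0.651 CPM, overlapped.

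The miRNAs whose levels most resembled those of miR-363-3p over the 12 libraries, out of 640 with at least 50 counts, were miR-125b-2-3p (r = 0.981), miR-99a-5p (0.972), miR-20b-5p (0.969), miR-532-5p (0.967) and miR-488-3p (0.961). For miR-20b-5p they were miR-95-3p (0.993), miR-660-5p (0.974), miR-125b-2-3p (0.972), miR-363-3p (0.969) and miR-532-5p (0.968). These are Pearson correlations of log2 CPM over libraries that fall into 6 groups and share their depth, given as a description. miR-125b-2-3p had 105 CPM ± 5.16 in knockdown cells, 0 in knockout cells and 1.01 CPM ± 0.110 in control cells (SD, n = 2 each), a pattern close to that of miR-363-3p.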

How the data were processed

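Small RNAs of 17 to 52 nt were sequenced by the authors from 12 libraries. The deposited values are raw counts per mature miRNA, made with cutadapt, Bowtie and hg19 per the submitters' processing notes. Versions and mismatches allowed are not given there, nor is the handling of reads that match more than 1 miRNA. Without molecular identifiers, intervals and limits cover counting error only.

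Contrasts were fitted with edgeR 4.0.16 (R 4.3.3), quasi-likelihood test, TMM factors, robust dispersion, filterByExpr and Benjamini-Hochberg adjustment at 0.05 over all miRNAs tested: line contrasts within the 6 libraries of EVs or of cells (488 and 613 miRNAs), the others on all 12 (574). Adjusted p-values are from this test. Members were tested only between lines in EVs. The SE is the log2 fold change over the root of F. Intervals are 95%, exact Poisson for levels and conditional exact for ratios, and the limit for 0 counts is 3 over the group. The code was tested on simulated data. Alternatives were DESeq2 1.42.0, other scalings, no filter, a GC correction, thinning, sums with the paralogue, a replicate block, only the groups compared, and leaving out each library. The members, lists and tests were chosen with earlier results of these data known. Named miRNAs are the members, the other arms of the locus, the lists of paralogues and neighbours, and the 5 most alike; list members were picked as examples after their values were seen.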

Additional observations from a re-analysis of the deposited data

Results flagged for a closer look

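In 3 results the EV to cell difference of a member passed edgeR's threshold for differing between lines. These interactions contain the line differences inside cells on which the members were selected, so that they describe the members and are no independent evidence of a difference. For miR-363-3p the value was lower in the knockdown line than in the control line (interaction -4.01). For miR-20b-5p it was also lower in the knockdown line (interaction -1.44). For miR-20b-5p it was higher in the knockout line than in the control line (interaction 1.98), where the knockout cells hold 3 counts. Groups of 2 libraries are too small for a test of single outlying libraries.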

How the results depend on the processing

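Depth limits these results. Values of EVs against cells and interactions are descriptions, and a lost or gained call among them means only the side of edgeR's threshold. Thinning every library to the 164656 counts of the shallowest left single counts for most members. The number of called miRNAs was then 38 for knockdown against control EVs, 15 for knockout against control EVs, 9, 13 and 22 for EVs against cells in the control, knockdown and knockout lines, and 2 and 10 for the knockdown and knockout interactions. Thinned log2 values were 0.82, 2.87 and 2.48 for miR-106a-5p, miR-20b-5p and miR-363-3p in knockdown EVs and -0.24, 0.0795 and -5.46 in knockout EVs. For EVs against cells they were -1.72, 4.94 and -0.26 in the control line, with 0.06 for miR-20b-5p in the knockdown line, and the knockdown interactions were 0.84, -4.88 and 0.0079; none passed at that depth. Sums with the paralogue, which is far more abundant and so sets their value, say nothing of the member itself; they gave -0.12 for miR-363-3p in knockdown EVs and -0.11, -0.19 and 0.27 for miR-106a-5p, miR-20b-5p and miR-363-3p in knockout EVs. For control EVs against cells the sums gave -0.55, -0.77, -0.47 and -0.12 for miR-106a-5p, miR-18b-5p, miR-20b-5p and miR-363-3p. They gave -0.58 for miR-363-3p in the knockdown line and 0.14 and 0.63 for miR-106a-5p and miR-18b-5p in the knockout line, with interactions of 0.30 and 0.40 (miR-106a-5p and miR-20b-5p, knockdown) and 0.69 and 1.39 (miR-106a-5p and miR-18b-5p, knockout).

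Without the filter on low counts the calls of miR-106a-5p were lost in knockdown EVs (0.96) and in control EVs against cells (0.18), as were the miR-20b-5p interactions of the knockdown (-1.11) and the knockout (2.01). The replicate block left miR-106a-5p in knockdown EVs at 1.26 but not past the threshold (adjusted p = 0.0516). It changed no other call of a member; replicate differences correlated by -0.05 to 0.065 between groups, so the numbers give no sign of pairing. Total counts turned the EV to cell values of the knockdown line to 0.0874, 0.32 and 0.21 for miR-106a-5p, miR-20b-5p and miR-363-3p and left the miR-20b-5p knockdown interaction at -1.11, not past the threshold. The GC correction gave 0.43 for miR-106a-5p in control EVs against cells, 0.18 for miR-20b-5p in the knockdown line, and interactions of -1.03 and 1.90 for miR-20b-5p that were lost. The knockout interaction of miR-106a-5p passed with RLE size factors (-0.92), DESeq2 (-0.92) and the GC correction (-1.04), that of miR-20b-5p was lost with DESeq2 (1.996), and the knockdown interaction of miR-106a-5p passed with only the groups compared (-1.11). The cause of these changes was not tested.

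Leaving out each library in turn gave 0.34 to 1.57 for miR-106a-5p in knockdown EVs, 0.35 to 0.59 for it in control EVs against cells and -0.48 to 0.18 in the knockout line, where the sign turned without the first knockout EV library. For miR-18b-5p in the knockout line the range was 0.93 to 4.84, the upper end resting on 0 counts in cells. The knockdown interactions ran from -1.70 to -1.34 for miR-20b-5p and -1.80 to -0.40 for miR-106a-5p, and the knockout ones from 1.73 to 2.56 and -1.07 to -0.41. The number of called miRNAs ran from 196 to 385 for knockdown against control cells, with 196 and 218 without the first and second knockdown cell library, and from 127 to 205 for knockout against control EVs, with 127 without the second control EV library. The line contrasts of miR-20b-5p and miR-363-3p in EVs kept their calls in all of these settings except thinning and the sums. No value was computed where a member had too few counts in both groups.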
